A study of Rattus norvegicus with 8 samples.

Results

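The genes described here encode the proteasome and the muscle ligases that feed it, in rat H9c2 cells grown on the International Space Station (space) or on Earth (ground), with or without nanoceria. They were taken by symbol: every gene named Psm followed by a letter from a to g and a number, plus Fbxo32 and Trim63. This gave 46 genes (44 with Psm names and the 2 ligases) of 15037 genes with a symbol on the array, each represented by 1 of the 23188 probe sets. Psmd11, Psmg1 and Psmg3 were not named on the array here and were not analysed.

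H9c2 is a myoblast line from embryonic rat heart that can fuse into skeletal muscle-like myotubes. Nanoceria are cerium oxide nanoparticles, here coated with serum proteins and given at 100 µg/ml. The groups were H9c2 cells in space with nanoceria (2 arrays), H9c2 cells in space without it (1 array), H9c2 cells on the ground with nanoceria (3 arrays) and H9c2 cells on the ground without it (2 arrays). All cells came from this 1 line, were kept in low-serum differentiation medium inside flight hardware and were fixed in RNAlater, and all values are from whole cultures, in which fewer cells of a kind and less RNA per cell cannot be told apart. The ground cultures followed the flight and repeated its recorded temperatures, which means that the gravity regime and the culture run cannot be told apart.

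The proteasome is the protease that degrades proteins tagged with ubiquitin. Its 20S core is a barrel of outer alpha rings and inner beta rings, with the catalytic sites on Psmb5, Psmb6 and Psmb7, which interferon can replace with Psmb8, Psmb9 and Psmb10. The 19S regulator binds ubiquitin chains and unfolds substrates with a ring of ATPases (Psmc genes), while Psme1 to Psme4 encode other activators and Psmf1 an inhibitor. In wasting skeletal muscle, Fbxo32 (atrogin-1) and Trim63 (MuRF1) are the ubiquitin ligases whose transcripts are used most as markers of atrophy.

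Levels are log2 of the deposited array intensity, and differences are in log2 units, so that a difference of 1 is a doubling. No detection call was used, so dim genes may lie at background. Array medians lay between 107 and 117 on the linear intensity scale, and the median of all log2 values over the 8 arrays was 6.81. Muscle markers were measured for 14 of 14 genes: Myod1 lay between 6.97 and 8.19, Myog between 6.25 and 9.89, and Des between 6.64 and 7.80, while Myf5 stayed between 4.01 and 4.75. Of the muscle markers, 10 of 14 lay above that median, with a list median of 7.62. So did 5 of 7 fibroblast markers (list median 11.14), 4 of 5 smooth muscle markers (11.85) and 2 of 7 measured cardiomyocyte markers (6.33). None of 6 endothelial markers and 1 of 6 leukocyte markers lay above the array median, with list medians of 4.83 and 4.75.

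Some arrays stood apart. Ground untreated replicate 3 had the lowest level of 9 of 9 measured cell cycle genes, on average 2.57 below the other arrays, and of 9 of 14 muscle markers. Over all genes it had the lowest level of 15.6%. The summed linear intensity of the cell cycle genes was 8781 to 9655 in the space nanoceria arrays, 8347 in the space untreated array, 7266 to 11394 in the ground nanoceria arrays, and 1314 and 7923 in the ground untreated arrays. The sum of the muscle markers was 2858 to 3657 in the space nanoceria arrays, 3467 in the space untreated array, 4291 to 6058 in the ground nanoceria arrays, and 1749 and 3159 in the ground untreated arrays. Without ground untreated replicate 3 the median difference over the 46 genes was -0.054 for space against ground (-0.066 with it) and 0.19 for nanoceria against untreated (0.090 with it).

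Among the proteasome genes the arrays that stood apart most were others. Ground nanoceria replicate 1 had the highest level of 30 of the 46 genes (65.2%), against 18.3% of all genes, and its levels were on average 0.31 above each gene's mean over the 8 arrays, against -0.0043 for all genes. Ground untreated replicate 1 had the lowest level of 15 of the 46 (32.6%), against 16.1% of all genes. Ground nanoceria replicate 3 had the lowest level of 11 (23.9%), against 12.5% of all genes. Ground untreated replicate 3 had the highest level of 9 (19.6%), against 14.5% of all genes. The heat map of all 46 genes shows ground nanoceria replicate 1 as a column of mostly red cells. It crosses the 20S core, the 19S regulator and the activators.

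**Figure D1:**
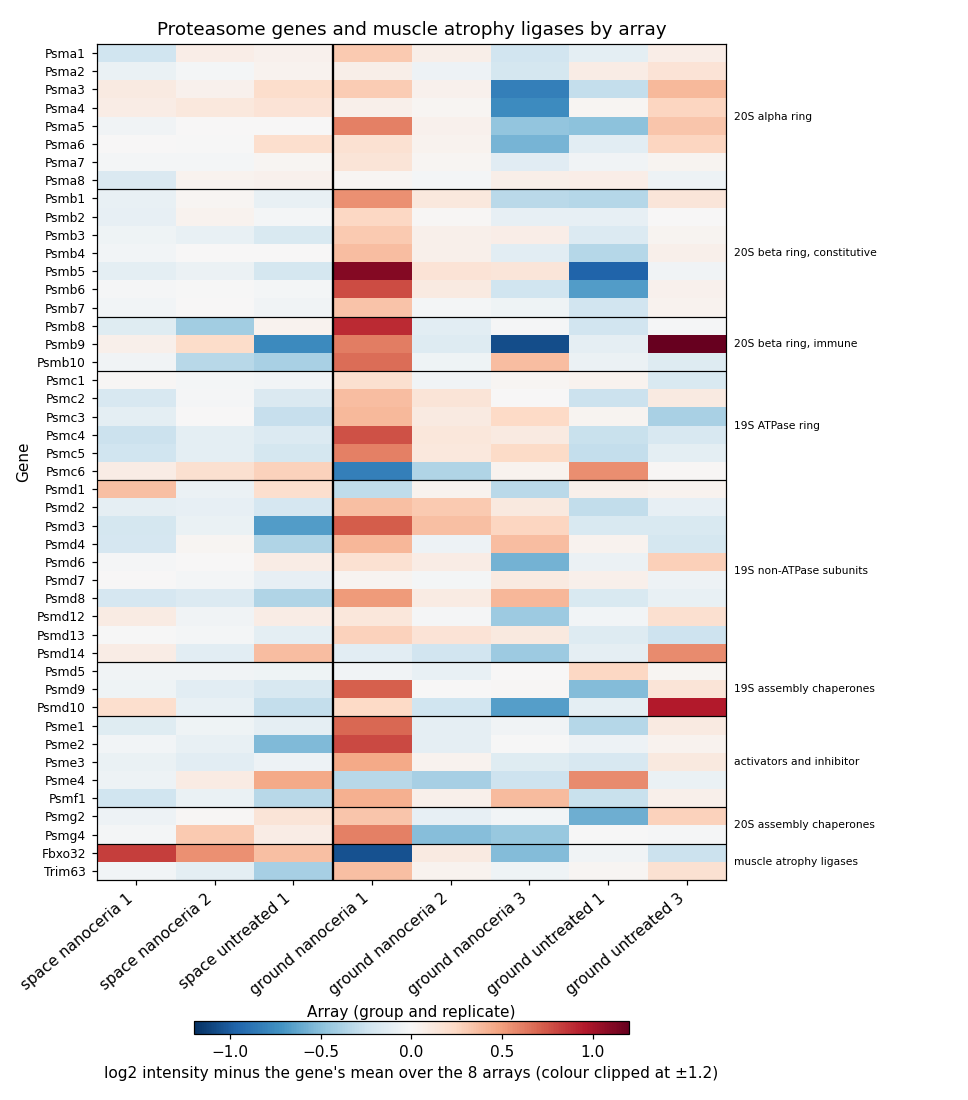
Log2 intensity of each of the 46 genes (rows, grouped by their place in the proteasome) on each of the 8 arrays (columns), as the difference from that gene's mean over the arrays. Ground nanoceria replicate 1 holds the highest level of 30 genes. For 44 genes the range over the 3 space arrays, left of the black line, is narrower than over the 5 ground arrays.

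The space arrays resembled each other more in these genes than the ground arrays did. The median range of a gene was 0.15 over the 3 space arrays and 0.82 over the 5 ground arrays, and 44 of 46 genes had the wider range on the ground (95.7%, against 87.7% of all genes). Set against the 3 ground nanoceria arrays alone, where the number of arrays is the same, the median ranges were 0.15 in space and 0.49 on the ground, and 40 of 46 genes were wider on the ground (87%, against 69.7% of all genes). The space arrays hold both treatments and the ground nanoceria arrays 1. These ranges are descriptions and no test was made of them.

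No gene of the 46 passed the test in any comparison. With limma's moderated test and Benjamini-Hochberg adjustment over 23188 probe sets, 0 of the 46 and 0% of all probe sets had an adjusted p under 0.05 in each of the 7 comparisons made, so no gene below is described as changed. In the words used here, a difference holds up before adjustment where its unadjusted p is under 0.05. On simulated data the adjusted test missed most true differences of 1, with the shares given under the processing.

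Space against ground, over both treatments, asks how these genes differed between the regimes. Of the 46 genes, 5 held up before adjustment, 1 higher and 4 lower in space (10.9%, against 9.56% of all probe sets in either direction, 5.30% higher and 4.26% lower). The median difference over the 46 was -0.066, against -0.054 over all genes, and 12 of 46 were higher in space (26.1%, against 39.7% of all genes). Without ground nanoceria replicate 1 the median was 0.0028. Without space nanoceria replicate 1, or without replicate 2, 2 of the 46 held up before adjustment.

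Fbxo32, the F-box subunit that brings substrates to a ubiquitin ligase in wasting muscle, had the largest difference among the 46. Its levels were 9.50 and 9.22 in the space nanoceria arrays, 9.03 in the space untreated array, 7.63, 8.78 and 8.15 in the ground nanoceria arrays, and 8.63 and 8.41 in the ground untreated arrays. All 3 space arrays lay above all 5 ground arrays. Of the 46 genes this was the 1 without overlap in either direction (2.17%, against 5.11% of all probe sets, 1.97% higher and 3.14% lower). The mean was 9.25 ± 0.23 in space (SD, n = 3) and 8.32 ± 0.45 on the ground (SD, n = 5). The fitted difference was 0.94 ± 0.26 (SE), a 1.92-fold higher level, with an adjusted p of 0.398 by limma. Leaving out 1 array at a time kept it between 0.74 and 1.17.

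Fbxo32 was higher in space within both treatments. Among treated cells the difference was 1.17 ± 0.32 (SE, adjusted p = 0.423 by limma, 2.26-fold), and without ground nanoceria replicate 1, the array with the lowest Fbxo32, it was 0.89. Among untreated cells, with 1 space array, it was 0.51 ± 0.43 (SE, adjusted p = 1 by limma). With nanoceria the difference was -0.10 ± 0.26 (SE) over both regimes (adjusted p = 0.915 by limma, 0.097 without ground nanoceria replicate 1), with -0.34 ± 0.32 on the ground and 0.33 ± 0.43 in space. The order of the arrays for Fbxo32 was that of the space arrays first and ground nanoceria replicate 1 last.

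Trim63, the RING-finger ligase of the sarcomere that is named beside Fbxo32 as an atrophy marker, did not share that order. Its levels were 6.59 and 6.51 in the space nanoceria arrays, 6.23 in the space untreated array, 6.99, 6.67 and 6.57 in the ground nanoceria arrays, and 6.65 and 6.81 in the ground untreated arrays. The groups overlapped, with the space untreated array lowest and ground nanoceria replicate 1 highest. The difference between space and ground was -0.30 ± 0.14 (SE, adjusted p = 0.549 by limma, -0.19 without the space untreated array), and between nanoceria and untreated 0.12 ± 0.14 (SE, adjusted p = 0.803). Trim63 was dim: its mean level stood at the 47.2 percentile of all probe sets, against the 75.9 percentile for the probe set of Fbxo32.

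The promoter of Trim63 is shown because it alone among the 41 promoters searched held the forkhead motif TGTTTAC, which FOXO factors of the atrophy programme can bind. The sequence is the 250 bases before the start of the gene in RefSeq (GRCr8, chr5:151816986-151817235, plus strand), written 5′ to 3′ with the motif in capitals, which begins 205 bases upstream of the start.
Trim63: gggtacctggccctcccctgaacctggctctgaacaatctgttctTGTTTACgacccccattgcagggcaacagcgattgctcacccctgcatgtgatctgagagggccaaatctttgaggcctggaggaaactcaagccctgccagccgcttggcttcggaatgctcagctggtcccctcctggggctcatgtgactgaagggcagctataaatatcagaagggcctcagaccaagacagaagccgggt
Promoters were found in the RefSeq table for 41 of the 46 genes, and those of Fbxo32, Psma7, Psmd6, Psmd12 and Psmd14 were not searched here. On either strand, TGTTTAC was in 1 of these 41 (2.44%), against 3.21% of 33469 rat promoters of the same length. The 41 are 1 promoter per gene, while the 33469 were not limited to 1 per gene or to genes on the array. Among the FOXO transcripts, Foxo1 differed by 0.18 ± 0.25 and Foxo3 by 0.090 ± 0.11 between space and ground (SE, adjusted p = 0.839 and 0.817 by limma).

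**Figure D2:**
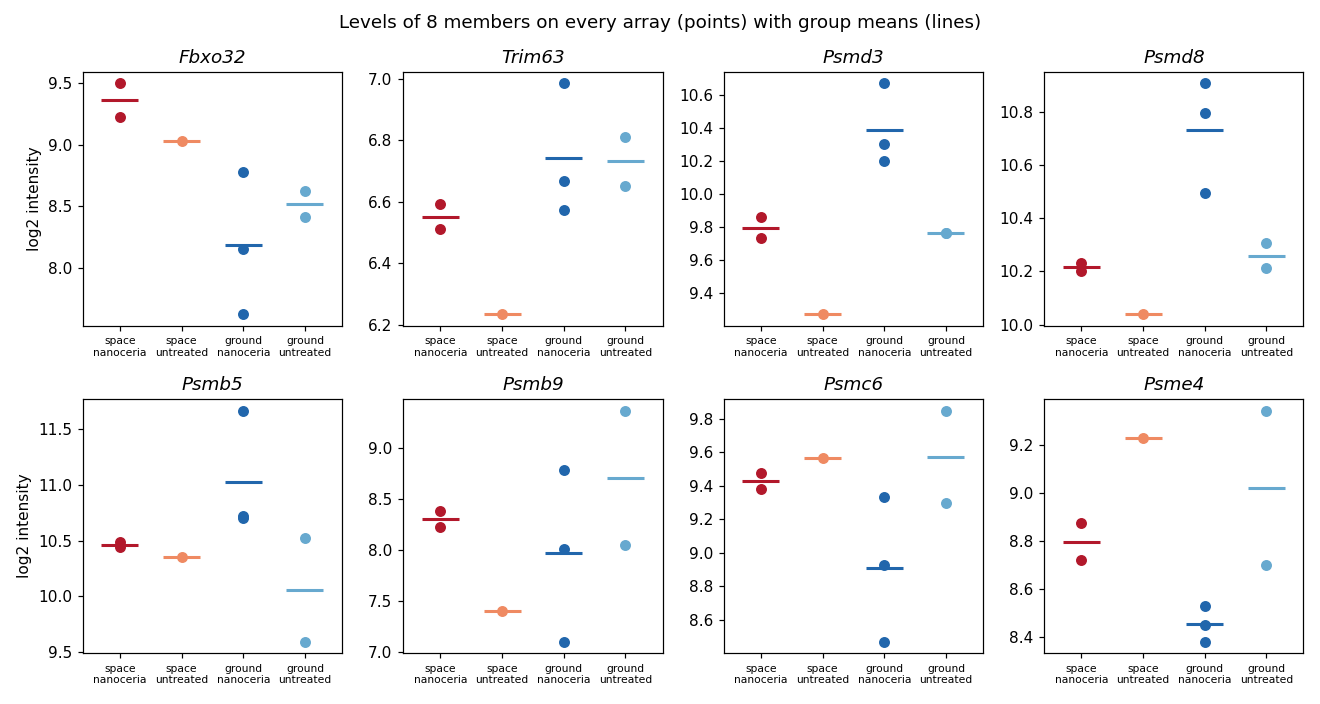
Log2 intensity on each of the 8 arrays (points) in each of the 4 groups for 8 of the genes, with the group mean as a line. Fbxo32 is the gene whose 3 space arrays (9.03 to 9.50) all lie above the 5 ground arrays (7.63 to 8.78), and Psmb5 runs from 9.60 to 11.66 over the ground arrays, with its space arrays between.

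Within the 19S regulator, Psmd3, a non-ATPase scaffold subunit of the lid, had the smallest p of the 46 in both main comparisons. Its levels were 9.73 and 9.86 in the space nanoceria arrays, 9.27 in the space untreated array, 10.67, 10.30 and 10.20 in the ground nanoceria arrays, and 9.76 and 9.76 in the ground untreated arrays. Nanoceria arrays lay higher than untreated arrays within each regime, and space arrays lay lower than ground arrays within each treatment. The difference was -0.56 ± 0.14 between space and ground (SE, adjusted p = 0.378 by limma) and 0.59 ± 0.14 between nanoceria and untreated (SE, adjusted p = 0.366 by limma). Over all arrays left out in turn these stayed between -0.61 and -0.47, and between 0.50 and 0.65.

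Psmd8, another lid subunit, had the same groups at its highest and lowest means. Its levels were 10.20 and 10.23 in the space nanoceria arrays, 10.04 in the space untreated array, 10.91, 10.49 and 10.80 in the ground nanoceria arrays, and 10.21 and 10.31 in the ground untreated arrays. The difference was -0.41 ± 0.14 between space and ground (SE, adjusted p = 0.434 by limma) and 0.37 ± 0.14 between nanoceria and untreated (SE, adjusted p = 0.47 by limma). The ground nanoceria arrays were the 3 highest for both lid genes.

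Other 19S genes gave smaller values. Psmd4, a ubiquitin receptor, differed by -0.31 ± 0.15 between space and ground (SE), and Psmc5, an ATPase, by -0.32 ± 0.16 (SE), while Psmd1, a large scaffold subunit, and Psmc6, another ATPase, had higher fitted levels in space, by 0.27 ± 0.15 and 0.33 ± 0.23 (SE). Psmd1 was at 0.14 without space nanoceria replicate 1, Psmc6 at 0.18 without ground nanoceria replicate 1, and Psmc5 at -0.22 without that same array. Of the 10 non-ATPase subunits 4 were higher in space, with a median of -0.084, and of the 6 ATPases 1 was higher, with a median of -0.22. Psmd7, a lid subunit, had the narrowest range of the 46 genes over the 8 arrays, 0.20.

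Nanoceria against untreated, over both regimes, asks whether the particles moved these genes in cells of either regime. Here 7 of the 46 held up before adjustment, 5 higher and 2 lower with nanoceria (15.2%, against 9.63% of all probe sets in either direction, 3.77% higher and 5.86% lower). The median difference was 0.090, against 0.040 over all genes, and 28 of 46 were higher (60.9%, against 57.1% of all genes). The count of 7 became 2 without ground untreated replicate 3 and 3 without ground nanoceria replicate 1. It was 4 with either space nanoceria replicate 2 or ground untreated replicate 1 left out. Besides Psmd3 and Psmd8 the higher ones were Psmd2 (0.33 ± 0.13), a large scaffold subunit, Psmc3 (0.35 ± 0.14), an ATPase, and Psmd13 (0.29 ± 0.12), a lid subunit (SE, adjusted p from 0.481 to 0.494 by limma). Without ground untreated replicate 3 the value of Psmc3 was 0.22. Psmd13 was the 1 gene of the 46 whose 5 nanoceria arrays (11.37 to 11.68) all lay above its 3 untreated arrays (11.16 to 11.28), against 4.74% of all probe sets without overlap in either direction, 2.47% higher and 2.28% lower.

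The 2 genes lower with nanoceria were Psme4 and Psmd14. Psme4, which encodes the activator PA200, had levels of 8.72 and 8.87 in the space nanoceria arrays, 9.23 in the space untreated array, 8.45, 8.38 and 8.53 in the ground nanoceria arrays, and 9.34 and 8.70 in the ground untreated arrays. Within each regime every nanoceria array lay below every untreated array. The difference was -0.52 ± 0.16 over both regimes (SE, adjusted p = 0.425 by limma, -0.34 without ground untreated replicate 1), -0.57 ± 0.21 on the ground and -0.43 ± 0.28 in space, and on the ground it was -0.25 without ground untreated replicate 1 and -0.89 without ground untreated replicate 3. Psmd14, the lid's deubiquitinase, had levels of 9.53 and 9.32 in the space nanoceria arrays, 9.82 in the space untreated array, 9.32, 9.22 and 9.01 in the ground nanoceria arrays, and 9.34 and 10.01 in the ground untreated arrays. Its difference over both regimes was -0.46 ± 0.17 (SE, adjusted p = 0.472 by limma), and -0.27 without ground untreated replicate 3.

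On the ground alone, 9 of the 46 held up before adjustment, 7 higher and 2 lower with nanoceria (19.6%, against 11.0% of all probe sets in either direction, 4.42% higher and 6.57% lower). The groups did not overlap for 14 of 46, 10 higher and 4 lower (30.4%, against 26.3% of all probe sets, 14.3% higher and 12.0% lower). The higher ones were led by Psmd3 (0.63 ± 0.18), Psmd2 (0.46 ± 0.16), Psmc5 (0.52 ± 0.19) and Psmd8 (0.47 ± 0.17) (SE, adjusted p from 0.314 to 0.399 by limma). Psmc6 went the other way within the same ATPase ring, at 8.47, 8.93 and 9.33 in the ground nanoceria arrays and 9.85 and 9.30 in the ground untreated arrays, a difference of -0.66 ± 0.28 (SE, adjusted p = 0.452 by limma) that was -0.39 without ground untreated replicate 1. Without ground nanoceria replicate 1, 2 of the 46 held up before adjustment and the median over the 46 was 0.0087, against 0.15 with it. The count of 9 became 5 without ground untreated replicate 1 or without either space nanoceria array, which enter through the shared spread.

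In space nanoceria could be set against 1 untreated array only, taken to vary like the other groups. None of the 46 held up before adjustment, against 1.47% of all probe sets (0.707% higher and 0.763% lower), and the median was 0.021. Psmd3 had the smallest p here too, with a difference of 0.53 ± 0.25 (SE, adjusted p = 1 by limma). Among untreated cells, 0 of the 46 differed between space and ground before adjustment, against 3.14% of all probe sets (1.63% higher and 1.51% lower), with a median of 0.010 that was -0.10 without ground untreated replicate 1.

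Among treated cells, space against ground gave 5 of 46 before adjustment, 1 higher and 4 lower (10.9%, against 8.41% of all probe sets, 5.02% higher and 3.39% lower). The 4 lower in space were Psmd3 (-0.59 ± 0.18), Psmd8 (-0.52 ± 0.17), Psmc5 (-0.50 ± 0.19) and Psmf1 (-0.44 ± 0.19) (SE, adjusted p from 0.47 to 0.592 by limma). Groups did not overlap for 17 of 46, 4 higher and 13 lower in space (37%, against 31.2% of all probe sets, 13.6% higher and 17.6% lower). Without space nanoceria replicate 1, 0 of the 46 held up before adjustment, without replicate 2 it was 2, without ground nanoceria replicate 1 it was 3 and without ground nanoceria replicate 2 it was 8. This comparison shares its ground arrays with the nanoceria comparison on the ground, so that a high ground nanoceria array enters both.

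**Figure D3:**
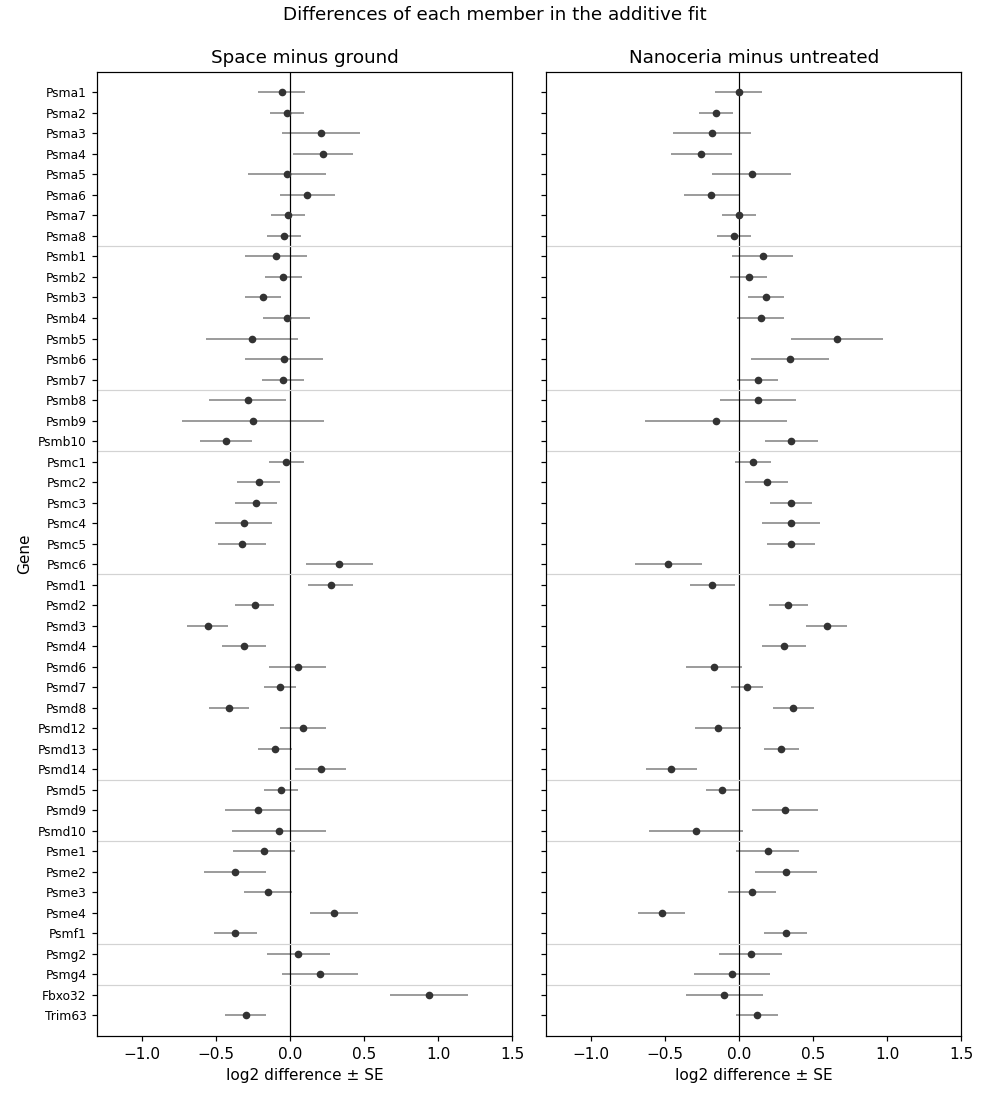
Difference in log2 intensity (points) with its standard error (bars) for each of the 46 genes, for space against ground and for nanoceria against untreated, from the fit over all 8 arrays. Fbxo32 lies furthest to the right for space against ground, at 0.94, and Psmd3 lies at -0.56 there and at 0.59 for nanoceria.

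Of the constitutive catalytic subunits, Psmb5 spread most between ground arrays. Psmb5, which holds the chymotrypsin-like site, had levels of 10.44 and 10.49 in the space nanoceria arrays, 10.35 in the space untreated array, 11.66, 10.72 and 10.70 in the ground nanoceria arrays, and 9.60 and 10.52 in the ground untreated arrays. Its highest and lowest levels were thus both on the ground, in the arrays numbered 1, and its space arrays lay between them. The difference with nanoceria on the ground was 0.97 ± 0.37 (SE, adjusted p = 0.412 by limma), against 0.11 ± 0.50 in space. Without ground untreated replicate 1 the value on the ground was 0.51.

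Psmb6, with the caspase-like site, had levels of 11.25 and 11.26 in the space nanoceria arrays, 11.24 in the space untreated array, 12.04, 11.37 and 11.02 in the ground nanoceria arrays, and 10.59 and 11.32 in the ground untreated arrays. Psmb7, with the trypsin-like site, had 11.76 and 11.80 in the space nanoceria arrays, 11.75 in the space untreated array, 12.14, 11.77 and 11.75 in the ground nanoceria arrays, and 11.56 and 11.84 in the ground untreated arrays. Both repeated the order of Psmb5 at its ends, with ground nanoceria replicate 1 highest and ground untreated replicate 1 lowest. Over the 7 constitutive beta genes, ground nanoceria replicate 1 was highest for 7 of 7 and ground untreated replicate 1 lowest for 6 of 7, on average 0.53 above and 0.40 below the genes' means.

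The promoters of Psmb5, Psmb6 and Psmd3 are shown because these genes had the widest ranges over the arrays among the constitutive beta genes and the 19S non-ATPase subunits. NRF factors can induce proteasome genes through antioxidant response elements, here searched as TGACNNNGC on both strands. Each sequence is the 250 bases before the gene's start in RefSeq (GRCr8), 5′ to 3′ on the gene's strand, with any match in capitals: chr15:32047380-32047629 (minus strand) for Psmb5, chr10:55737638-55737887 (plus strand) for Psmb6 and chr10:84139688-84139937 (plus strand) for Psmd3.
Psmb5: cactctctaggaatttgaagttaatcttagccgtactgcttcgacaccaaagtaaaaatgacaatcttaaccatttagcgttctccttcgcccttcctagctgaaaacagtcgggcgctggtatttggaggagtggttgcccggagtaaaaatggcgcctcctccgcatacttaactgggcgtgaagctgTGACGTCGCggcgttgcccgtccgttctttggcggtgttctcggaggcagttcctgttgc
Psmb6: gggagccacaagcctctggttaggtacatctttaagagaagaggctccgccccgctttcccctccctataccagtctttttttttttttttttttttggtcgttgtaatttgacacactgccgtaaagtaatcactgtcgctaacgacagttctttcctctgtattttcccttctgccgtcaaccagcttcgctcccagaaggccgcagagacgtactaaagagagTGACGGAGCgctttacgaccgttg
Psmd3: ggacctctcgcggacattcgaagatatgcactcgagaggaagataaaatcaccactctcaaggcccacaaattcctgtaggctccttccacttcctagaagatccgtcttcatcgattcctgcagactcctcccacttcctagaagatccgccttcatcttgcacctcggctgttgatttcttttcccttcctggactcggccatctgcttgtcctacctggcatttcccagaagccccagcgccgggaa
The match begins 60 bases upstream of the start in Psmb5 and 24 bases upstream in Psmb6, and these letters are not in the window of Psmd3. The motif was in 7 of 41 promoters of these genes (17.1%), against 10.1% of 33469 rat promoters. The CCAAT box (letters CCAAT on either strand) was in 19 of 41 (46.3%), against 34% of rat promoters. For both motifs the rat promoters were again not limited to 1 per gene or to genes on the array. Nfe2l2, which encodes NRF2, differed by 0.26 ± 0.19 between space and ground and by -0.34 ± 0.19 between nanoceria and untreated (SE, adjusted p = 0.678 and 0.605 by limma). Nfe2l1, the gene of another NRF factor, was not named on the array here and has no value.

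Of the immune subunits, Psmb9 had the widest range of all 46 genes, 2.26, with levels of 8.22 and 8.38 in the space nanoceria arrays, 7.40 in the space untreated array, 8.78, 8.01 and 7.11 in the ground nanoceria arrays, and 8.05 and 9.36 in the ground untreated arrays. It was highest in ground untreated replicate 3, the array that was lowest for 9 of 9 cell cycle genes. That array was also highest for 4 of 9 measured genes of interferon-induced antigen processing, against 14.5% of all genes. On average these 9 lay 0.25 above the other arrays there. Psmb10 had levels of 9.18 and 8.89 in the space nanoceria arrays, 8.84 in the space untreated array, 9.89, 9.17 and 9.59 in the ground nanoceria arrays, and 9.15 and 9.07 in the ground untreated arrays.

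The difference of Psmb10 between space and ground was -0.43 ± 0.18 (SE, adjusted p = 0.501 by limma), against -0.25 ± 0.48 for Psmb9 and -0.29 ± 0.26 for Psmb8, so that Psmb10 was the 1 immune subunit that held up before adjustment. Psmb9 was at 0.34 without the space untreated array, and Psmb8 at -0.064 without ground nanoceria replicate 1. Psmb8 was dim, between 6.15 and 7.46, with ground nanoceria replicate 1 highest. Of 9 measured genes of interferon-induced antigen processing, 4 had a higher and 5 a lower fitted level in space. Calr, a chaperone of antigen loading, was the 1 that held up before adjustment (11.1%, against 9.56% of all probe sets), at -0.41 ± 0.15 (SE), or -0.25 without space nanoceria replicate 1. With nanoceria 4 of the 9 had a higher fitted level and 0 held up before adjustment.

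The alpha ring and the ATPase ring departed from each other in ground nanoceria replicate 3. This array was lowest for 5 of 8 alpha genes (62.5%, against 12.5% of all genes). It was also lowest for 4 of 10 non-ATPase subunits of the 19S regulator (40%). On average it was 0.39 below the means of the alpha genes and 0.11 above those of the 6 ATPases, against 0.022 above for all genes. Psma3, for example, had 11.72 and 11.67 in the space nanoceria arrays, 11.83 in the space untreated array, 11.91, 11.66 and 10.79 in the ground nanoceria arrays, and 11.32 and 12.00 in the ground untreated arrays. No alpha gene held up before adjustment in either main comparison. With nanoceria Psma2 differed by -0.15 ± 0.12 over both regimes, and Psma6 by -0.20 ± 0.33 in space (SE). Psma7 was the steadiest of the bright ones, with a range of 0.29, and Psma8, a germ-line form, was dim at 4.96 to 5.22 on all arrays.

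**Figure D4:**
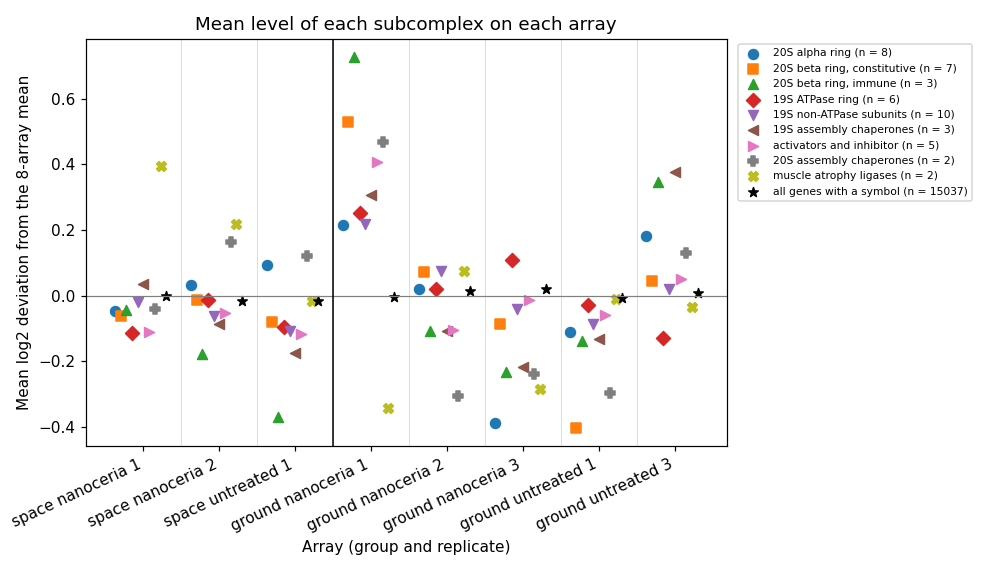
Mean difference from each gene's mean over the 8 arrays, in log2 units, for each group of proteasome genes (symbols) and for all genes with a symbol (stars) on each array. The constitutive beta genes peak at 0.53 in ground nanoceria replicate 1 and reach -0.40 in ground untreated replicate 1, and the alpha ring reaches -0.39 in ground nanoceria replicate 3.

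Among the activators, Psme1 and Psme2, the interferon-inducible PA28 subunits, shared their highest array. Psme1 had levels of 10.47 and 10.57 in the space nanoceria arrays, 10.51 in the space untreated array, 11.31, 10.51 and 10.57 in the ground nanoceria arrays, and 10.28 and 10.73 in the ground untreated arrays. Psme2 lay at 11.39 in ground nanoceria replicate 1 and between 10.06 and 10.64 in the other 7 arrays. Their differences between space and ground were -0.18 ± 0.21 and -0.37 ± 0.21 (SE, adjusted p = 0.812 and 0.602 by limma), and -0.010 and -0.21 without that array. Psme3, the nuclear PA28 subunit, ranged from 10.45 to 11.09 with the same array highest.

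Psmf1, the PI31 inhibitor, was lower in space by the fit. It had levels of 10.45 and 10.60 in the space nanoceria arrays, 10.35 in the space untreated array, 11.11, 10.74 and 11.06 in the ground nanoceria arrays, and 10.41 and 10.75 in the ground untreated arrays. The difference was -0.37 ± 0.14 (SE, adjusted p = 0.489 by limma), with overlap between the groups. Of the assembly chaperones, Psmd10 was highest in ground untreated replicate 3 (8.26, against 6.65 to 7.54 elsewhere), and Psmd9 and Psmg2 were lowest in ground untreated replicate 1 (9.61 and 7.70).

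Whether nanoceria acted differently in space than on the ground was tested as an interaction. None of the 46 held up before adjustment, against 2.35% of all probe sets (1.44% higher and 0.906% lower), and the median was -0.11, against -0.022 over all genes. Psmb9 had the largest value, 1.65 ± 0.88 (SE), followed by Psmd10 at 0.98 ± 0.62, Psmb5 at -0.85 ± 0.62, Psmb8 at -0.69 ± 0.52 and Fbxo32 at 0.66 ± 0.53 (adjusted p = 1 by limma for each). With 1 untreated array in space these errors are wide, and leaving out 1 ground array moved these values to as little as 0.99, 0.44, -0.39, -0.37 and 0.38, in the same order.

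Genes that work beside the proteasome were taken as lists, chosen with earlier results of these data known. The share of a list is therefore a description and not a test of that list. Among 18 measured assembly, regulation and accessory factors, 1 was higher and 1 lower in space before adjustment (11.1%, against 9.56% of all probe sets): Ube3a, a ubiquitin ligase found on proteasomes, and Ubqln4, a shuttle factor (-0.53 ± 0.15 SE). Ube3a had levels of 8.14 and 7.70 in the space nanoceria arrays, 8.75 in the space untreated array, 5.26, 6.78 and 6.78 in the ground nanoceria arrays, and 8.06 and 7.44 in the ground untreated arrays. Its differences were 1.42 ± 0.37 between space and ground and -1.25 ± 0.37 between nanoceria and untreated (SE, adjusted p = 0.379 and 0.424 by limma). Usp14 (-0.56 ± 0.18) and Ngly1 (-0.34 ± 0.13) also held up before adjustment with nanoceria, both lower, which made 3 of 18 (16.7%, against 9.63% of all probe sets). Without ground untreated replicate 3 the value of Usp14 was -0.33.

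Of 14 measured genes of ubiquitin activation and conjugation, 2 were higher and 3 lower in space before adjustment (35.7%, against 9.56% of all probe sets). The 2 higher were the conjugating enzymes Ube2g1 (0.40 ± 0.17 SE) and Ube2r2 (0.35 ± 0.15 SE). The 3 lower were Uba1, the main ubiquitin-activating enzyme, and the conjugating enzymes Ube2s and Ube2g2. Uba1 had levels of 11.37 and 11.40 in the space nanoceria arrays, 11.33 in the space untreated array, 11.94, 11.92 and 11.77 in the ground nanoceria arrays, and 11.41 and 11.60 in the ground untreated arrays, a difference of -0.38 ± 0.12 (SE, adjusted p = 0.425 by limma). Ube2s differed by -0.52 ± 0.12 and Ube2g2 by -0.48 ± 0.16 (SE, adjusted p = 0.358 and 0.433). Groups did not overlap for 5 of the 14 (35.7%, against 5.11% of all probe sets), with Ube2g1 and Ube2j1 higher in space and Uba1, Ube2s and Ube2g2 lower. With nanoceria 1 was higher (Ube2s, 0.35 ± 0.12) and 1 lower (Uba6, -0.71 ± 0.28, or -0.46 without ground untreated replicate 1) before adjustment (14.3%, against 9.63% of all probe sets).

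Of 43 other atrophy ligases and regulators, 5 were higher and 5 lower in space before adjustment (23.3%, against 9.56% of all probe sets). Igf1, a growth factor that restrains the atrophy programme, was dim and had levels of 4.76 and 5.33 in the space nanoceria arrays, 5.30 in the space untreated array, 4.38, 4.47 and 4.44 in the ground nanoceria arrays, and 4.37 and 4.39 in the ground untreated arrays. Its groups did not overlap, and the difference was 0.72 ± 0.15 (SE, adjusted p = 0.334 by limma). Bnip3, a mitophagy receptor that FOXO factors can induce in muscle, had levels of 11.50 and 12.00 in the space nanoceria arrays, 11.91 in the space untreated array, 9.06, 11.08 and 9.59 in the ground nanoceria arrays, and 9.57 and 10.21 in the ground untreated arrays. Its groups did not overlap either, and the difference was 1.90 ± 0.41 (SE, adjusted p = 0.334 by limma), a 3.74-fold higher level. Groups did not overlap for 6 of the 43, 2 higher and 4 lower (14%, against 5.11% of all probe sets). Asb2, a muscle ligase subunit, differed by -0.41 ± 0.11 (SE, adjusted p = 0.391). With nanoceria 0 were higher and 3 lower, Traf6 (-0.58 ± 0.15), Mdm2 (-0.68 ± 0.22) and Nedd4 (-0.44 ± 0.17), or 6.98% of the list, against 9.63% of all probe sets.

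Of 9 measured cell cycle genes, 8 were higher in space and 9 of 9 with nanoceria (88.9% and 100%, against 39.7% and 57.1% of all genes). Their medians were 0.46 and 0.87. Before adjustment 1 (Mki67) and 2 (Cdc20 and Aurka) held up (11.1% and 22.2%, against 9.56% and 9.63% of all probe sets). Without ground untreated replicate 3, the array with low cell cycle levels, the medians were 0.15 and 0.19. The arrays are single samples whose labels do not say which culture unit each came from, so p-values measure only the spread between these samples.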

How the data were processed

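Each of 8 H9c2 RNA samples was measured on its own rat Clariom S Pico array. In the deposited table the authors give an intensity for every probe set on every array. RMA is the tool that the submitters' processing notes name, with no version given in the sources used here. In the plan values were taken as log2, but they were linear (8.63 to 19506), so log2 was taken without a pseudocount.

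All 23188 probe sets were tested with limma 3.58.1 (R 4.3.3) and adjusted by Benjamini-Hochberg at 0.05. A model with regime and treatment as terms, with 5 residual degrees of freedom, served the comparisons over both treatments or both regimes. A model of the 4 group means, with 4 residual degrees of freedom, served those within a regime or treatment and the interaction. The lone space untreated array was taken to have the spread of the others. The scripts were tested on simulated data with the spread of these arrays and 200 changed probe sets. A true difference of 1 was recovered for 45.5% of these for space against ground over both treatments. For nanoceria over both regimes it was 48%, and in every other comparison 0%. A true difference of 2 was recovered for 37% (interaction) to 92% (space against ground over both treatments).

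The genes and lists were chosen with earlier results of these data known. Genes always described were Fbxo32, Trim63, Psmb5 to Psmb10, Psme1 to Psme4 and Psmf1. To these were added those 4 of the 46 whose p was smallest, per direction and comparison, and up to 3 genes of each list and comparison. Others were named after their values were seen (Psmd4, Psmd5, Psmd7, Psmd9, Psmd13, Psma3, Psma7, Psma8, Foxo1, Foxo3, Nfe2l2, Ube2g1, Ube2j1, Ube2r2, Myod1). The alternatives were a filter to the brighter 66.7% of probe sets, cyclic loess, arrays shifted to equal medians, an intensity trend in the variance, array weights, the replicate number as a block, and leaving out each array. Ground untreated replicate 2 was not analysed here.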

Additional observations from a re-analysis of the deposited data

Results flagged for a closer look

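Arrays that did not overlap moved in opposite directions in 2 conditions for 4 of the 46 genes. Nanoceria against untreated differed for Psmd5 by 0.0043 in space and by -0.18 on the ground (a difference of 0.18 ± 0.25, SE), which was 1 of 46 genes (2.17%), against 5.47% of all genes. Space against ground differed by -0.53 in treated and 0.16 in untreated cells for Psmb8 (a difference of -0.69 ± 0.52, SE). For Psmc4 these were -0.52 and 0.060 (a difference of -0.58 ± 0.38, SE). For Psmd13 they were -0.20 and 0.079 (a difference of -0.28 ± 0.24, SE). These 3 of 46 (6.52%) stand against 5.39% of all genes, and the interaction gave an adjusted p of 1 by limma for all 4. Each rests on 1 untreated array in space. No group had enough arrays for a check of single outlying arrays.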

How the results depend on the processing

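None of the 46 genes passed the adjusted threshold under any alternative run, with a smallest adjusted p of 0.142 (limma, nanoceria on the ground without ground untreated replicate 3). Over all probe sets the adjusted count for nanoceria on the ground was 167 without ground untreated replicate 1, against 0 with it, for space against ground 4 with array weights and 1 without ground untreated replicate 3 or ground nanoceria replicate 2, and for space in untreated cells 6 without ground untreated replicate 1. The medians over the 46 moved by less than the 0.16 spread between replicates in all 95 values. Each main median was itself smaller in size than this spread, so the rule cannot show that a median was stable. Leaving out 1 array gave -0.14 to 0.0028 for space against ground, and 0.0087 to 0.25 for nanoceria on the ground. Counts before adjustment moved more: with array weights 5 became 8 for space against ground and 9 for space in treated cells, 7 became 4 for nanoceria over both regimes and 9 became 5 for nanoceria on the ground. With 1 array left out they ran from 2 to 7 for space against ground, 2 to 9 for nanoceria over both regimes and on the ground, and 0 to 8 for space in treated cells. The cause was not tested. Leaving out 1 array in turn changed the sign of 27 of the 46 genes for space in untreated cells and of 9 to 18 in the other 6 comparisons. Of the 8 genes with the smallest p in each comparison, 4 a direction, only 3 changed sign, all for space in untreated cells: Psmg2 (-0.12 to 0.74) and Psmb6 (-0.080 to 0.65), negative without ground untreated replicate 1, and Psme4 (-0.11 to 0.53), negative without ground untreated replicate 3. With the replicate number as a block the median over the 46 was -0.083 for space (both treatments) and 0.17 for nanoceria on the ground, and the counts before adjustment were 3 and 2. Deviations of same-numbered arrays correlated at -0.348 to -0.0133 over 5 pairs, so the numbers were not taken to pair samples. Each gene had 1 probe set, so averaging probe sets was not run, and without the single space untreated array 3 comparisons have no value. The number of arrays limits the precision, with a median SE of 0.16 for the 46 genes in the fit over both treatments.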
